A study of Panicum virgatum with 54 samples.

Results

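Heat was applied to droughted switchgrass leaves for 72 h, and the leaf transcriptome was then compared with that of droughted leaves held without heat for the same 144 h. The comparison rests on 6 of the 54 RNA-seq libraries of the experiment, 3 from drought-and-heat plants (called combined here) and 3 from drought plants, taken by their labels, and it covers all 32190 gene identifiers in the read count table. All plants were described as Panicum virgatum AP13, a single genotype selected from the lowland cultivar Alamo and propagated as ramets. They were labelled at stage E3, and leaf was the tissue sampled. The full design has 18 groups of 3 libraries, namely control, drought and combined plants at 0, 72, 96, 120, 144 and 168 h. Combined plants were labelled as having no heat yet at 72 h, so 0 h is also taken as unheated. Their labels give hours of heat at 96, 120 and 144 h but not at 168 h. The 168 h libraries are counted here with the heated times. Heated plants had a growth chamber of their own, apart from the chamber that held control and drought plants, and heat and chamber cannot be told apart. The labels used here give neither the temperatures nor the water levels, nor whether replicate libraries are different plants. Every p-value here is thus set against library-to-library spread, part of which may be technical.

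Switchgrass is a perennial C4 grass and an allotetraploid, with chromosomes of the K and N subgenomes that carry many similar gene pairs. In plants generally, heat activates heat shock transcription factors, which raise transcripts of chaperones that bind unfolded proteins, while drought acts largely through abscisic acid, a hormone that closes stomata and induces protective proteins. The files do not pair the identifiers with gene names, and 0 of the 32190 identifiers matched the available gene table. Heat shock genes, leaf markers and markers of other cell types could therefore not be looked up, and the genes below are described by identifier, chromosome and level. Reads from similar K and N copies could be split or shared by the counting, which makes the level of any 1 copy uncertain.

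The 6 libraries did not group by treatment first. A set of 405 genes is almost missing from 12 libraries of the experiment (the second profile) and present in 38 (the first profile). In 4 libraries, all at other times than 144 h, it is intermediate, and fits split by profile count these with the first. The set was found among the 9 libraries at 0 h without reference to treatment. The level in a library was taken as the median over these genes of CPM relative to the 0 h libraries that express them. At 144 h it was 1.29%, 0.428% and 91.2% in combined replicates 1, 2 and 3. In drought replicates 1, 2 and 3 it was 1.04%, 86.4% and 97.2%. Combined plants thus had the second profile in 2 of 3 libraries, drought plants in 1 of 3 and control plants at 144 h in 0 of 3. Whether the profiles reflect genotype, batch or another difference between libraries was not tested. Across 23341 genes with a mean of at least 5 CPM (counts per 1 M counts), combined replicate 1 correlated at r = 0.933 with drought replicate 1 and at r = 0.841 with combined replicate 3. Combined replicate 3 correlated at r = 0.894 with drought replicate 2 and at r = 0.883 with drought replicate 3. The lowest value, r = 0.803, was between combined replicate 3 and drought replicate 1. These correlations are across genes within pairs of libraries and describe the libraries only. None of the 405 genes (0) was among those called between combined and drought leaves at 144 h, against 0.887% of all genes tested. Each group held libraries of both profiles, so these genes varied widely within each group and could hardly be called. The 0 therefore does not tell whether profile entered the calls. The other gene lists below were not searched for them. Library totals at 144 h were 34.8 to 38.5 M counts in combined, 26.9 to 36.7 M in drought and 27.1 to 40.5 M in control plants, within 19.2 to 61.6 M over all libraries.

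**Figure D1:**
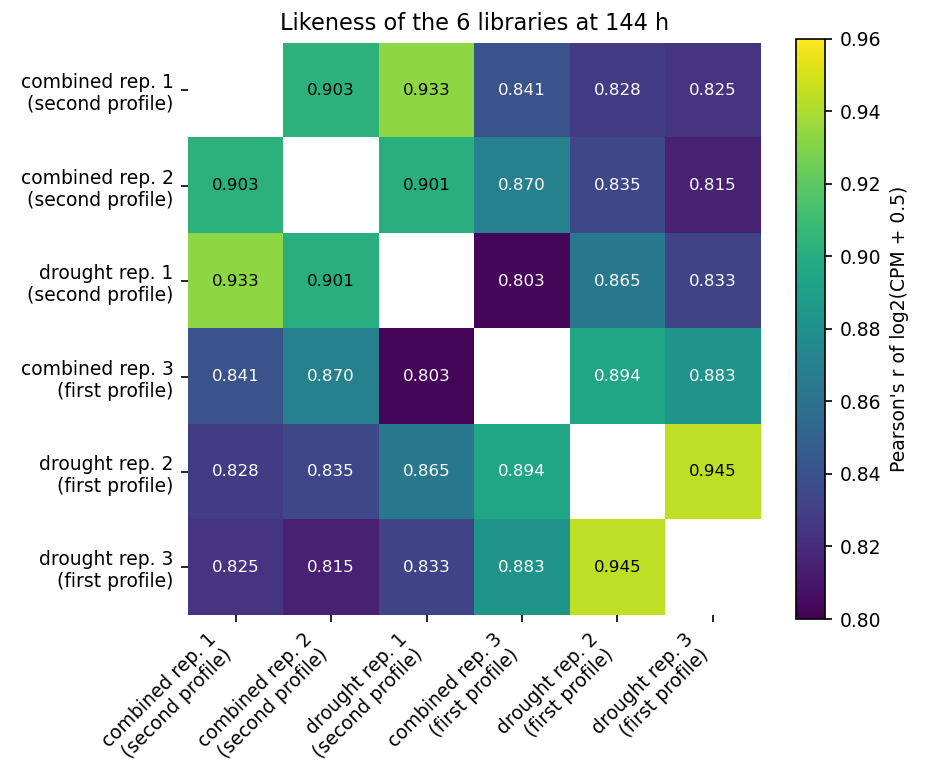
Pearson correlation of log2(CPM + 0.5) over 23341 genes for each pair of the 6 libraries at 144 h, with the profile of each library marked. Values run from 0.803 to 0.945, and pairs of the same profile exceed pairs of the same treatment and different profile.

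Among droughted leaves, 72 h of heat went with more higher than lower transcripts. Of 32011 genes tested, 284 (0.887%) differed between combined and drought leaves at 144 h, by edgeR's quasi-likelihood test with Benjamini-Hochberg adjustment at 0.05. In combined leaves 232 genes (0.725%) were higher and 52 (0.162%) lower. At an unadjusted p below 0.05 the number was 4233. The higher genes had a median log2 difference of 1.60 (quartiles 1.14 and 2.32), and 192 of them differed at least 2-fold, 81 at least 4-fold and 7 at least 16-fold. The lower genes had a median of -1.02 (quartiles -1.61 and -0.75), with 26 at least 2-fold and 11 at least 4-fold. Over all genes tested the median was 0.00, with quartiles of -0.32 and 0.31. The 3 combined libraries lay above the 3 drought libraries for 3033 genes (9.47% of those tested) and below them for 2445 (7.64%). The calls depended on single libraries and on the test. The number of higher genes was 34 without drought replicate 2, 40 without drought replicate 3, 60 without combined replicate 3 and 88 without combined replicate 2. The number of lower genes was 6, 11, 5 and 7 without the same libraries, and 79 without combined replicate 1. DESeq2 called 499 higher and 271 lower. Fewer genes in each direction were called by limma, and none by edgeR on the compared libraries alone, as given below.

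The higher genes were moderately expressed and took a visible share of the reads. Their median of group means was 21.6 CPM in combined, 7.73 CPM in drought and 11.6 CPM in control plants at 144 h. Over all genes tested these medians were 10.5, 10.3 and 10.6 CPM. Together the higher genes held 1.2%, 1.41% and 1.64% of the counts in combined replicates 1, 2 and 3. They held 0.476%, 0.408% and 0.434% in the drought libraries, and 0.514%, 0.816% and 0.517% in the control libraries. The lower genes held 0.113%, 0.0848% and 0.0940% of the counts in combined, 0.175%, 0.212% and 0.225% in drought, and 0.170%, 0.221% and 0.137% in control libraries. These shares describe the genes by the same libraries that called them. A 6-library mean of at least 5 CPM was reached by 194 of the 232 and 46 of the 52, against 22624 of all 32011 genes tested.

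Pavir.5NG048500.v4.1, on chromosome 5N, had the smallest p among higher genes with a mean of at least 5 CPM. Its levels were 4.45, 3.75 and 2.31 CPM in drought and 11.4, 14 and 12.5 CPM in combined replicates 1 to 3, with 7.40, 7.34 and 7.13 CPM in control plants. The 3 groups did not overlap, and control lay between the other two. The log2 difference between combined and drought was 1.85 ± 0.28 (SE, n = 3 per group; edgeR adjusted p = 0.00151).

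Pavir.7KG376300.v4.1, on chromosome 7K, had the largest fold difference among the remaining higher genes of that level. It stood at 0.208, 0.417 and 0.0379 CPM in drought plants, at 5.10, 17.5 and 8.12 CPM in combined plants and at 1.56, 0.923 and 0.690 CPM in control plants. Again no 2 groups overlapped and control lay between. The log2 difference was 5.46 ± 1.05 (SE, n = 3 per group; edgeR adjusted p = 0.00579). It was not called without drought replicate 3 (log2 5.02, edgeR adjusted p = 0.0685) or by limma (adjusted p = 0.499).

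Among lower genes with a mean of at least 5 CPM, Pavir.5KG244900.v4.1 on chromosome 5K had the smallest p. Its levels were 9.40, 12.5 and 15.6 CPM in drought and 4.17, 5.03 and 7.21 CPM in combined plants, with 15.9, 12.6 and 10.3 CPM in control plants. Combined libraries lay below all 6 others, and drought and control overlapped. The log2 difference from drought was -1.19 ± 0.20 (SE, n = 3 per group; edgeR adjusted p = 0.00216), and the call held with any 1 of the 6 libraries left out.

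Pavir.3KG571300.v4.1, on chromosome 3K, had the largest fold difference among the remaining lower genes with a mean of at least 5 CPM. It was even in combined plants, at 0.743, 0.650 and 0.662 CPM, and uneven elsewhere, at 1.81, 26.5 and 18.1 CPM in drought and 46.6, 21.5 and 4.0 CPM in control plants. The lowest drought value belonged to drought replicate 1, the second-profile library. Within the profiles the log2 difference was -1.37 in the second and -5.06 in the first. At 0 h the second-profile libraries were also the lowest of their groups, at 1.51 CPM in drought and 1.16 CPM in combined plants. The log2 difference was -4.49 ± 1.1 (SE, n = 3 per group; edgeR adjusted p = 0.0333). Leaving out any of combined replicates 1 to 3 or drought replicates 2 and 3 ended this call, with edgeR adjusted p between 0.078 and 0.174.

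**Figure D2:**
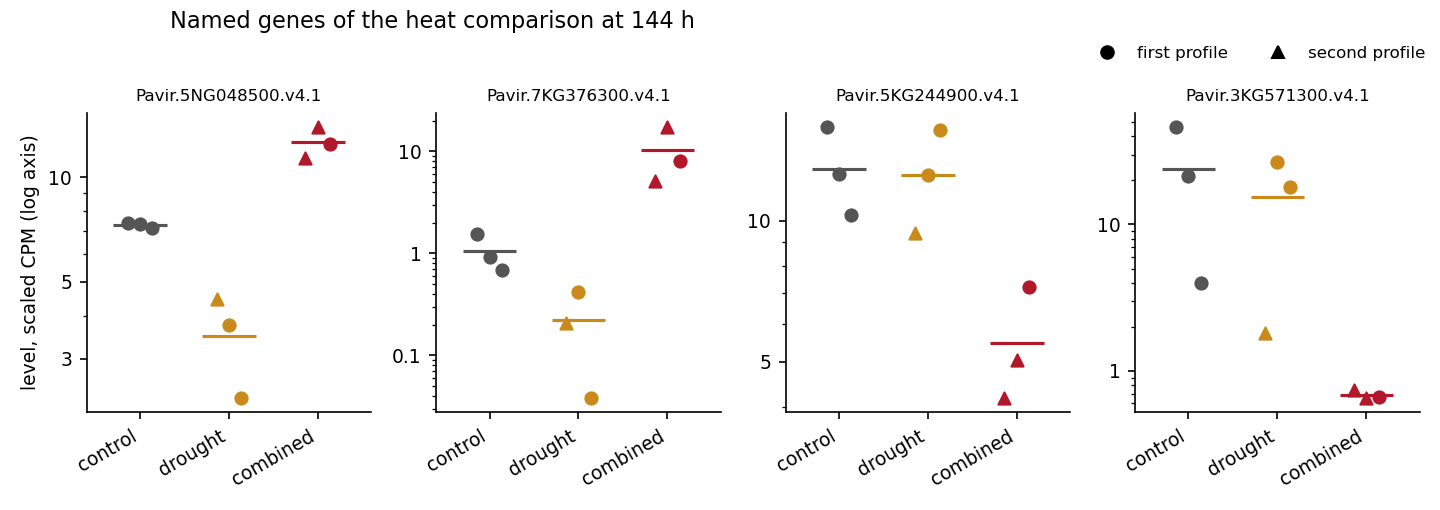
Level in scaled CPM (log axis, own range in each panel) of the 4 named genes of the heat comparison at 144 h; points are single libraries, bars the means of 3, and triangles mark second-profile libraries. Combined points lie above all drought points for Pavir.5NG048500.v4.1 and Pavir.7KG376300.v4.1, and below them for Pavir.5KG244900.v4.1 and Pavir.3KG571300.v4.1.

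Because profile and treatment were unevenly mixed, the difference was also taken within each profile, a comparison added after the data were seen. The second-profile comparison set combined replicates 1 and 2 against drought replicate 1, and the first-profile comparison set combined replicate 3 against drought replicates 2 and 3. Each has a lone library on one side. Its spread is assumed to be that of the other groups and was not measured, so no calls are read from either comparison alone. All 232 higher genes were positive and all 52 lower genes negative in both, with medians of 1.43 (second profile) and 1.85 (first profile) for higher genes and -0.81 and -1.23 for lower genes. These are the libraries that called the genes, so the shared signs are a description. Averaged over both profiles, edgeR called 81 genes higher and 19 lower, of which 78 and 8 were among the 232 and 52.

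The comparisons within each profile share no library, so the values of one were read for genes ranked in the other; the p below only ranks genes. Of the 597 genes higher at an unadjusted p below 0.01 in the first profile, 541 (90.6%) were also positive in the second profile, where 52.2% of all genes were positive, and their median was 1.62 in the first and 0.82 in the second. Of 468 genes lower in the first profile, 397 (84.8%) were negative in the second, against 47.6% of all genes, with medians of -1.29 and -0.33. In the other direction, 115 of 123 genes higher in the second profile (93.5%) were positive in the first, against 49.7% of all genes, with medians of 1.76 and 1.35. Of 138 genes lower in the second profile, 93 (67.4%) were negative in the first, against 50.1%, with medians of -1.66 and -0.42. The shares describe these 6 libraries, and the medians were smaller in the profile that did not rank the genes.

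Control plants at 144 h place the difference between the other two groups. For 216 of the 232 higher genes (93.1%) the control mean lay between drought and combined, and for 16 (6.9%) the drought mean lay between. Over all genes tested, control lay in the middle for 32.7%; choosing genes for a gap between combined and drought raises this share by itself. Against control, the higher genes had a median log2 difference of 0.94 in combined and -0.59 in drought plants, and 16 of them were positive in drought. For the lower genes the medians were -0.88 in combined and 0.15 in drought. The control libraries are shared by these differences, and the combined and drought libraries are those that chose the genes.

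Tested directly against control at 144 h, 201 genes (0.628%) differed in combined plants, with 104 higher (0.325% of 32011) and 97 lower (0.303%) by edgeR with Benjamini-Hochberg adjustment. The genes that were higher had a median log2 difference of 1.47, beside 0.40 for the same genes in drought against the same control libraries, and the lower genes had -1.39, beside -0.41. Drought against control at 144 h had 0 called genes by edgeR (1960 at an unadjusted p below 0.05), 0 by limma and 130 by DESeq2. The count against control rested on single libraries, with 0 genes called without combined replicate 2 or control replicate 1, 43 without combined replicate 1, 106 without control replicate 3 and 739 without control replicate 2. For drought against control edgeR called 21 genes without drought replicate 2, 6 without drought replicate 3 and 1 without control replicate 3. In combined plants, replicates 1 and 2 had the second profile, and no control library at 144 h did. Profile and treatment are thus unevenly mixed in the comparison with control. The count for combined plants was lower with a profile factor, as given below.

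Pavir.4KG319200.v4.1, on chromosome 4K, had the smallest p among genes higher than control. It stood at 11.1, 13.1 and 10.9 CPM in control, 14.7, 11.6 and 11.7 CPM in drought and 38.9, 32.5 and 37.6 CPM in combined plants. Control and drought overlapped, and combined lay well above both. The log2 difference from control was 1.64 ± 0.29 (SE, n = 3 per group; edgeR adjusted p = 0.0137), and it was not called without combined replicate 2 (edgeR adjusted p = 0.0616) or control replicate 1 (edgeR adjusted p = 0.0771).

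Pavir.5KG244900.v4.1, named above, also had the smallest p among genes lower than control, at a log2 difference of -1.24 ± 0.20 (SE, n = 3 per group; edgeR adjusted p = 0.0131). That call was lost without combined replicate 2 (edgeR adjusted p = 0.0634) or control replicate 1 (edgeR adjusted p = 0.0771). The genes with the largest fold differences from control were uneven among libraries. Pavir.5KG056400.v4.1 (chromosome 5K) had 0.496, 0.0615 and 0.138 CPM in control, 83.2, 43.9 and 10.4 CPM in combined, and 126, 1.37 and 1.74 CPM in drought plants (log2 7.68 ± 1.87, SE, n = 3 per group; edgeR adjusted p = 0.042). Its high drought value was in the second-profile library, and its combined levels at 168 h were back to 0.785, 0.354 and 0.313 CPM.

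Pavir.8NG055500.v4.1 (chromosome 8N) had 38.4, 0.185 and 29.8 CPM in control, 0.0889, 0.119 and 0.379 CPM in drought and 0.0265, 0.137 and 0.0255 CPM in combined plants. Its log2 difference from control was -8.53 ± 1.92 (SE, n = 3 per group; edgeR adjusted p = 0.037). All drought and combined libraries from 72 h on had 3.18 CPM or less, and control libraries overlapped this at 144 h and at 168 h, where they had 5.92, 4.85 and 1.37 CPM. Drought against control at 144 h was not called (log2 -6.90, edgeR adjusted p = 0.306). The call of Pavir.8NG055500.v4.1 was lost without any 1 of the combined libraries or control replicate 1. That of Pavir.5KG056400.v4.1 was lost without any 1 of the control libraries or of combined replicates 1 and 2.

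The gap of the 232 higher genes was also present on other days. At 0 h, 218 of the 232 (94%) had a higher mean in combined than in drought plants already, against 51.2% of all genes, with a median log2 difference of 0.81. At 72 h, labelled as before heat, 223 (96%) were positive with a median of 0.94, against 52.6% of all genes. Without combined replicate 3 at 72 h, a library that resembled heated ones, the median was 0.55 and 211 were positive. At 96, 120 and 168 h the medians were 0.85, 0.73 and 0.69, with 227, 223 and 215 of 232 positive. At all 3 of these times together 204 were positive (87.9%, against 26.4% of all genes). All of these values come from libraries that did not choose the genes, and the chamber differed at every time. Of the 232, edgeR called 83 higher at 72 h (1.86% of all genes), 69 at 96 h (3.66%), 27 at 120 h (1.28%) and 41 at 168 h (1.08%). Without combined replicate 3 at 72 h, the 83 calls went to 0. At 0 h edgeR called 0 of the 232 and 0 genes in all.

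For the lower genes the gap at 0 h and 72 h was smaller than at the heated times, with no test of that difference. At 0 h their median was -0.11 and 39 of 52 (75%) were negative, against 48.8% of all genes. At 72 h the median was -0.37 with 43 negative (82.7%, against 47.4% of all genes), and -0.24 with 40 negative without combined replicate 3. At 96, 120 and 168 h it was -0.62, -0.62 and -0.64, with 51, 52 and 52 negative, and 51 (98.1%) were negative at all 3, against 25.1% of all genes. Of the 52, edgeR called 3 lower at 72 h (0.69% of all genes), 20 at 96 h (2.11%), 11 at 120 h (0.678%) and 13 at 168 h (1.21%), and the 3 at 72 h went to 0 without combined replicate 3.

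The levels of each group were also followed over time. The median of the higher genes in a library, relative to the mean of the 9 libraries at 0 h, was 0.57, 0.62 and 0.49 log2 units in combined plants at 0 h and lay between -0.60 and -0.18 in drought and control plants. At 144 h it was 0.43, 0.87 and 0.93 in combined plants, within the range of their other times, and -0.66, -0.74 and -0.79 in drought plants, the 3 lowest values of all 54 libraries. Drought plants had stood at 0.37, 0.62 and 0.19 at 96 h and were at 0.03, 0.30 and -0.03 at 168 h. The medians of the lower genes in combined plants ran from -0.25 to 0.12 at 0 h, from -0.87 to -0.50 at 96 to 168 h, and were -0.63, -0.79 and -0.87 at 144 h. In drought plants at 144 h they were 0.13, 0.26 and 0.33. The 144 h values are partly fixed by the choice of genes in these same libraries; those of other times are not.

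**Figure D3:**
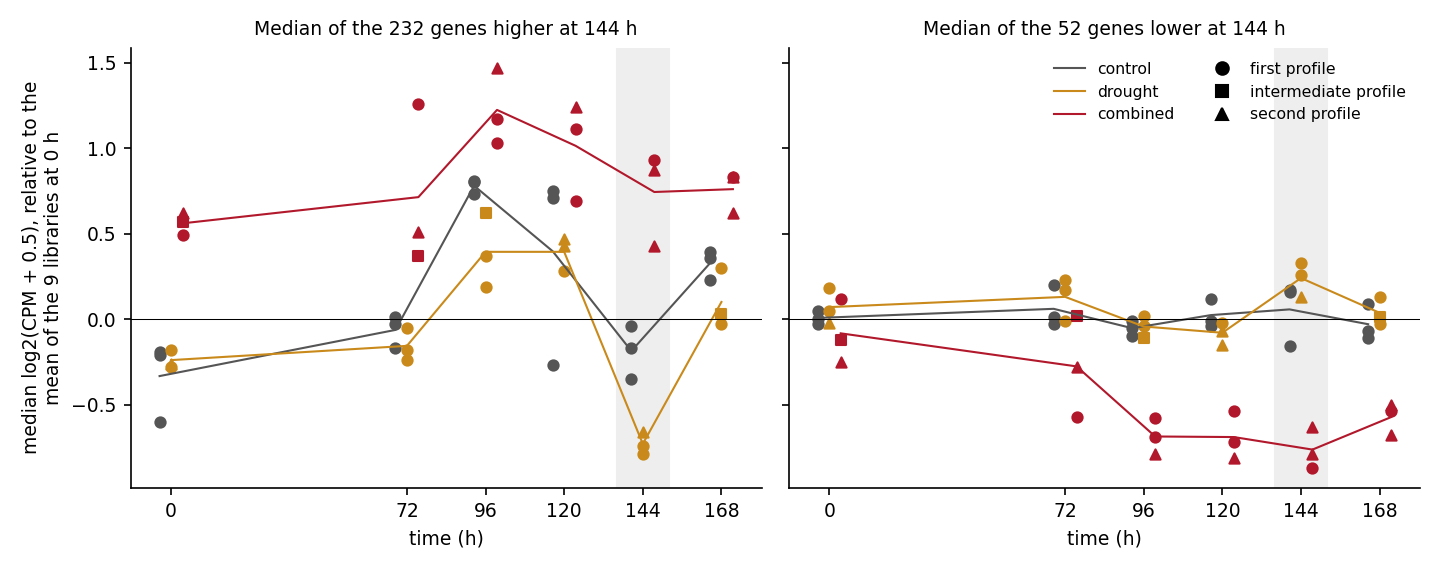
Median over the 232 higher and the 52 lower genes in every library, in log2 units relative to the mean of the 9 libraries at 0 h, by time and treatment; marker shapes give the profile of the library. The 144 h drought libraries are the lowest for the higher genes, and combined libraries are already above drought and control at 0 h.

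The named genes follow these courses at other times. Pavir.5NG048500.v4.1 stood at 9.50, 7.78 and 9.99 CPM in combined and 6.54, 5.01 and 4.20 CPM in drought plants at 0 h, with no overlap. Its log2 differences were 0.79, 1.01, 1.27, 0.77 and 0.91 at 0, 72, 96, 120 and 168 h, of which those at 72 h (edgeR adjusted p = 0.0392) and 96 h (edgeR adjusted p = 0.0101) were called. Pavir.7KG376300.v4.1 stood at 17.9, 29.3 and 12.2 CPM in combined against 1.71, 2.0 and 1.41 CPM in drought plants at 0 h. At 96 h it reached 121, 241 and 76.4 CPM in combined, 31.1, 27.6 and 25.5 CPM in control and 6.65, 17.2 and 2.44 CPM in drought plants, and combined lay above the other groups. Its level at 144 h was therefore below that at 96 h in each treatment.

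The named lower genes had other courses. Pavir.5KG244900.v4.1 had 14.5, 11.6 and 15 CPM in combined and 10.9, 12.6 and 17.4 CPM in drought plants at 0 h, which overlapped. Its log2 differences were then -0.24, -0.66, -0.58 and -1.34 at 72, 96, 120 and 168 h. Combined levels at 168 h were 4.56, 4.88 and 5.26 CPM, and drought levels 10.5, 14.9 and 11.7 CPM. Pavir.3KG571300.v4.1 was at 4.71, 1.16 and 12.4 CPM in combined plants at 0 h and at 0.907, 0.194 and 1.29 CPM at 96 h, while drought plants had 7.81, 4.49 and 8.89 CPM at 96 h.

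Taking the difference at 72 h away from that at 144 h asks what arose after heat began. No gene (0 of 32011) was called by edgeR, with 2066 at an unadjusted p below 0.05; limma called 0, limma with an estimated correlation among libraries of one replicate number 4, and DESeq2 88. The medians of this net difference were 0.56 for the higher genes (208 positive), -0.62 for the lower genes (2 positive) and -0.03 for all 32011 genes (15210 positive). The 144 h libraries that chose the genes enter this difference. Setting the difference at 144 h against the mean of those at 96, 120 and 168 h gave 0 genes by edgeR (1357 at an unadjusted p below 0.05), 0 by limma and 17 by DESeq2. Without drought replicate 1 at 144 h this last count was 14, without combined replicate 3 at 120 h it was 1, and the net count was 1 without combined replicate 1 at 72 h.

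One library bears on the combined values that start from 72 h. Combined replicate 3 at 72 h, labelled as unheated, correlated at r = 0.735 to 0.804 with the other combined libraries at 72 h and at r = 0.967 with combined replicate 1 at 96 h. Without it, the net difference had medians of 0.91 for the higher genes (227 positive) and -0.73 for the lower genes. Of all 32012 genes in that fit, 16357 were positive, and edgeR still called 0 genes (2930 at an unadjusted p below 0.05). The 72 h gap itself was then 0.55 for the higher genes (211 of 232 positive) and -0.24 for the lower genes, and the edgeR calls over all genes at 72 h went from 594 higher and 221 lower to 1 and 0.

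Within combined plants 312 genes (0.975%) changed from 72 h to 144 h by edgeR with Benjamini-Hochberg adjustment, of which 175 (0.547%) rose and 137 (0.428%) fell. With an estimated correlation among libraries of one replicate number (0.204), limma called 782, against 231 without it. Genes that rose had a median log2 change of 1.41 and genes that fell one of -1.37. In drought plants over the same hours, the genes that rose had a median of 0.23, and 144 of them (82.3%) changed with the same sign, against 49.8% of all genes. The genes that fell had a median of -0.22 in drought plants, and 98 (71.5%) had the same sign, against 50.1%. Most of these genes thus had the same sign in drought plants kept without heat, at smaller medians. The profiles also shifted in both arms over these hours. Combined replicate 1 was intermediate at 72 h (34.7%) and second at 144 h (1.29%). Drought replicate 1 was first at 72 h (87.65%) and second at 144 h (1.04%). Whether the shared signs reflect this shift was not tested. Without combined replicate 3 at 72 h, 74 genes rose and 83 fell. Leaving out any other of these 6 libraries also lowered the count, to 31 without replicate 2, 55 without replicate 1 and 173 without replicate 3 at 144 h, and to 128 without replicate 1 and 98 without replicate 2 at 72 h.

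For the 232 higher genes the median change in combined plants from 72 h to 144 h was -0.04, with 103 positive, against 14804 of all 32011 genes. In drought plants their median was -0.63 and 220 of 232 were negative, against 50.1% of all genes. Of the 232, 91 (39.2%) were up in combined and down in drought, against 19.9% of all genes. Another 129 (55.6%) were down in both, against 30.3%, and 12 (5.17%) up in both, against 26.4%. Without combined replicate 3 at 72 h, the combined median was 0.29 with 164 positive, against 15928 of all 32012 genes in that fit. For the 52 lower genes the medians were -0.52 in combined and 0.10 in drought, and -0.68 in combined without that library. These medians share the 144 h libraries with the choice of genes.

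Pavir.5KG298600.v4.1 (chromosome 5K) had the smallest p among genes that rose. It went from 106, 102 and 104 CPM at 72 h to 335, 222 and 239 CPM at 144 h in combined plants, a log2 change of 1.35 ± 0.19 (SE, n = 3 per group; edgeR adjusted p = 0.000783). Drought plants went from 161, 136 and 149 CPM to 145, 153 and 181 CPM, which overlapped. In combined plants it was at 237, 173 and 240 CPM at 168 h, above the 123 to 136 CPM of 96 h.

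Pavir.9KG127900.v4.1 (chromosome 9K) had the smallest p among genes that fell. It went from 41.1, 31.4 and 35.1 CPM to 18.4, 17.5 and 15.8 CPM in combined plants, a log2 change of -1.06 ± 0.18 (SE, n = 3 per group; edgeR adjusted p = 0.00399). Drought plants went from 22.3, 20.6 and 29.4 CPM to 25.4, 30.3 and 28.0 CPM, which overlapped. The calls of Pavir.5KG298600.v4.1 and Pavir.9KG127900.v4.1 held without combined replicate 3 at 72 h, at edgeR adjusted p = 0.00844 and 0.00994.

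The genes named for the largest changes were uneven. Pavir.5KG106100.v4.1 (chromosome 5K) went from 0.064, 0.0933 and 0.583 CPM to 106, 6.88 and 7.41 CPM in combined plants (log2 7.25 ± 1.53, SE, n = 3 per group; edgeR adjusted p = 0.0177), while drought plants went from 25.5, 12.9 and 4.39 CPM to 19, 19 and 23.6 CPM. Its levels at 144 h overlapped those of drought plants. Without combined replicate 1 at 144 h it was not called (log2 4.77, edgeR adjusted p = 0.114), nor without replicate 1 (edgeR adjusted p = 0.0722) or 2 (edgeR adjusted p = 0.077) at 72 h.

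Pavir.2KG078600.v4.1 (chromosome 2K) fell from 0.352, 5.74 and 68.0 CPM to 0.318, 0.240 and 0.433 CPM in combined plants (log2 -6.20 ± 1.1, SE, n = 3 per group; edgeR adjusted p = 0.00761). The 72 h level was that of combined replicate 3 for the most part, and without it the log2 change was -3.21 (edgeR adjusted p = 0.0721). The call was also lost without combined replicate 2 at 144 h (edgeR adjusted p = 0.0515). At 96 h combined plants had 59.4, 72.5 and 42.3 CPM. At 120 h they had 59.8, 69.0 and 0.703 CPM, and 7.24, 9.61 and 10.1 CPM at 168 h. The gene was thus high on the first day of heat and low in all 3 libraries after 72 h of it, and combined replicate 3 at 120 h was already low. That library correlated at r = 0.960 with combined replicate 3 at 144 h.

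**Figure D4:**
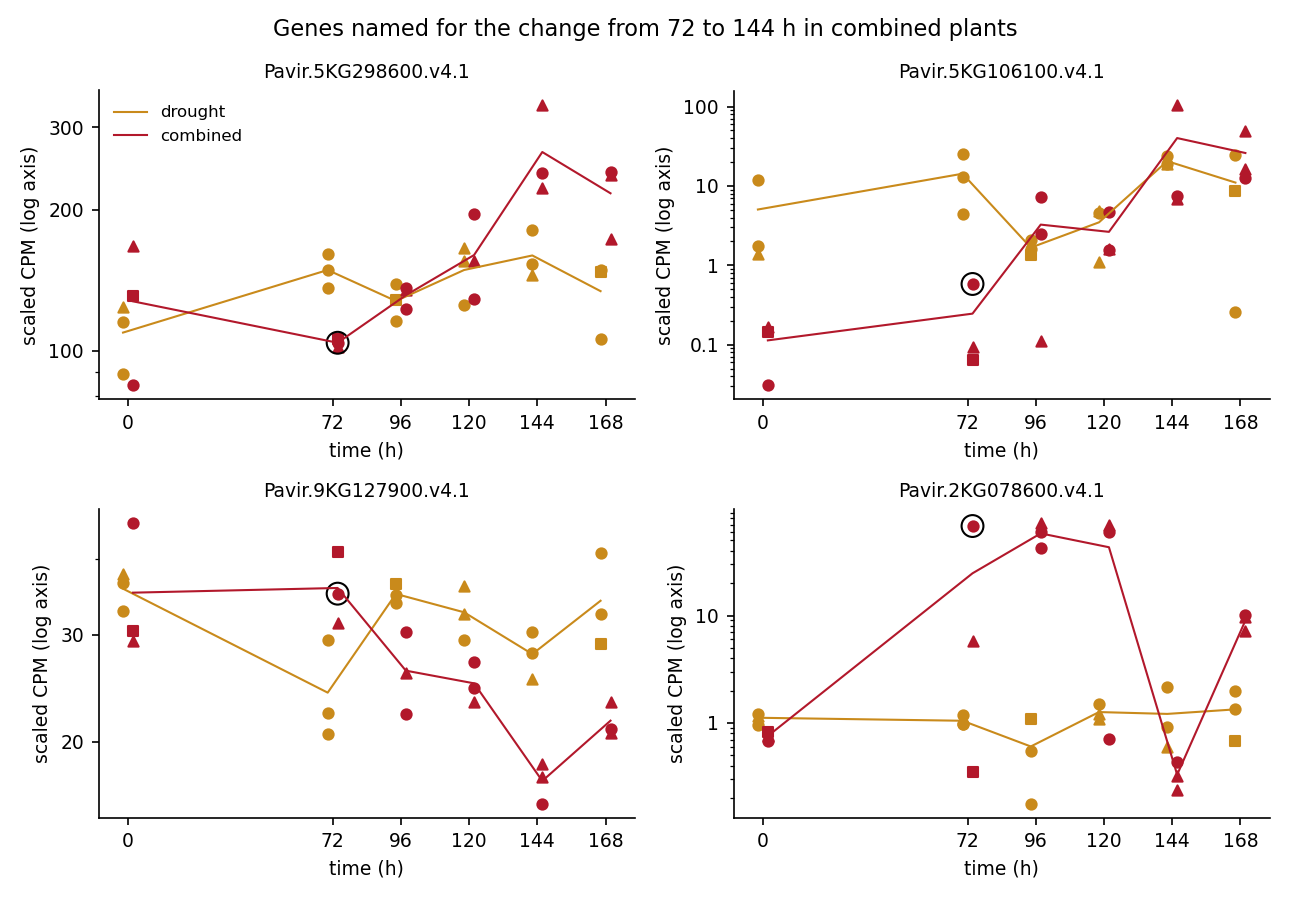
Level in scaled CPM (log axis, own range in each panel) against time in drought and combined plants for the 4 genes named for their change between 72 and 144 h in combined plants; points are libraries, lines join group means, marker shapes give the profile, and a ring marks combined replicate 3 at 72 h. For Pavir.2KG078600.v4.1 the ringed point at 68.0 CPM lies with the 96 h libraries.

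In drought plants 1 gene was lower at 144 h than at 72 h (0.00312%) and 0 were higher by edgeR (1791 at an unadjusted p below 0.05), while limma called 0 genes in either direction and DESeq2 169. The 1 gene, Pavir.1NG460800.v4.1 on chromosome 1N, is named because it was alone. It went from 2.24, 3.04 and 2.34 CPM to 0.474, 0.566 and 0.303 CPM in drought plants (log2 -2.48 ± 0.36, SE, n = 3 per group; edgeR adjusted p = 0.000888) and was at 2.73, 2.71 and 2.43 CPM at 168 h. Combined plants had 1.57, 2.02 and 3.26 CPM at 144 h, and the gene was one of the 232 (log2 2.33 ± 0.36, SE, n = 3 per group; edgeR adjusted p = 0.00151). Its drought levels at 144 h were the lowest of the 54 libraries. The drought count was higher without single libraries, at 42 genes without drought replicate 2 and 6 without drought replicate 3 at 144 h.

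A search for genes with at most 3 counts over one group and at least 1 CPM in each library of the other found 0 that were near absent in drought and 1 near absent in combined plants. That gene, Pavir.9NG685100.v4.1 on chromosome 9N, chosen after its values were seen, had 0, 0 and 0.0255 CPM in combined and 21.1, 4.11 and 2.16 CPM in drought plants. It was not called (edgeR adjusted p = 0.0967) and reached 84.3 CPM in 1 combined library at 168 h.

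The called genes were spread over both subgenomes. On K chromosomes 131 of 15664 genes tested (0.836%) were higher and 24 (0.153%) lower, and on N chromosomes 94 of 14899 (0.631%) were higher and 27 (0.181%) lower. Identifiers with the letter J, which names neither subgenome, gave 7 higher and 1 lower of 1448. By chromosome the share that was higher ran from 0.399% on 6K (5 of 1252) to 1.22% on 7K (17 of 1390). These counts were not tested against each other.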

How the data were processed

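The authors deposited a table of raw counts per gene identifier, 1 column per library, from leaf RNA made into libraries with an Illumina TruSeq stranded mRNA kit, per the labels' protocols. TopHat, Cufflinks and HTSeq are named in the submitters' processing notes; the sources used here do not give their versions, the genome build, the annotation or the strand setting. Groups were read from the labels; combined libraries titled 94 h are taken as 96 h. The genes, lists and rules were chosen with earlier results of these data known.

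Counts were fitted in edgeR 4.0.16 (R 4.3.3) over all 54 libraries with 18 group means, TMM scaling and the default expression filter (minimum count 10, minimum total 15), which removed 179 of 32190 identifiers. The common biological coefficient of variation was 0.433. Contrasts were tested by the quasi-likelihood F-test and adjusted over 32011 genes, and genes were called at 0.05. CPM values are counts per 1 M counts, scaled by TMM. In each comparison the gene with the smallest p and, of the rest, that with the largest fold in each direction were named where the mean was at least 5 CPM. Alternatives were DESeq2 1.42.0, limma 3.58.1, other scaling and filters, a replicate block, profile fits and left-out libraries. The comparison of combined and drought leaves at 144 h was also run on simulated counts. These held no profiles, and the outcome is not reported here. The chi-square per gene between libraries within the combined or the drought group at 144 h was 57.8 or more, so none was a copy of another in its group. Control libraries were not checked in this way.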

Additional observations from a re-analysis of the deposited data

Results flagged for a closer look

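One gene was called when the differences within the profiles were set against each other, in edgeR over 32011 genes with Benjamini-Hochberg adjustment (778 genes at an unadjusted p below 0.05), and the call is that of 1 outlying library. For Pavir.3KG441200.v4.1 on chromosome 3K the log2 difference of combined from drought plants at 144 h was -2.26 in the second profile and 0.69 in the first, and their difference was -2.96 ± 0.41 (SE; edgeR adjusted p = 0.00143). Drought replicates 1, 2 and 3 had 22.2, 4.67 and 4.36 CPM, combined replicates 4.62, 4.62 and 7.31 CPM and control replicates 5.84, 4.29 and 5.75 CPM. The value rests on drought replicate 1, the lone second-profile drought library at 144 h, whose spread was not measured. Other second-profile drought libraries had 5.64 CPM at 0 h and 5.29 and 5.19 CPM at 120 h, so a difference in response between profiles is not shown.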

How the results depend on the processing

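For genes higher and lower at 144 h (232 and 52), DESeq2 called 499 and 271, limma 117 and 31, limma with an estimated correlation 97 and 19, the 38 first-profile libraries 12 and 6, and the libraries compared alone 0 and 0 (3489 at an unadjusted p below 0.05). The first profile gave 10 and 1, the second 0 and 1, and both averaged 81 and 19. Leaving out 1 library gave 34 to 262 higher and 5 to 79 lower. For the net difference, DESeq2 called 88 and limma with an estimated correlation 4, and left-out libraries gave 0 to 1. Against the other heated times DESeq2 called 17 and left-out libraries gave 0 to 14. For combined plants since 72 h (312), DESeq2 called 1057, limma with an estimated correlation 782, a profile factor 528, the 38 libraries 0 and the groups alone 0, with 31 to 173 after leaving out 1 library. For drought plants since 72 h (1), DESeq2 called 169, and limma, limma with an estimated correlation, the 38 libraries, the groups alone and a stricter filter each 0, with 1 to 42 after leaving out 1 library. Against control, combined plants (201) had 1490 by DESeq2, 58 by limma, 51 with an estimated correlation, 51 with a profile factor, 0 in the 38 libraries and 0 in the groups alone, with 0 to 739 after leaving out 1 library. Drought against control had 130 by DESeq2 and 0 to 21 after leaving out 1 library. The cause of these shifts was not tested. No gene named in the 4 comparisons changed direction under any alternative run for its comparison; Pavir.3KG441200.v4.1, above, differed in sign between the profiles.

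Replicate numbers did not pair combined with drought libraries at 144 h, where the deviations of same-numbered libraries correlated at 0.517, -0.306 and 0.499. Within a treatment, libraries of one number had an estimated correlation of 0.204 over times, the one used by limma above. With the number as a replicate block, 272 genes were higher and 84 lower, 410 changed in combined plants since 72 h and 778 differed between combined and control; the other counts stayed at 0 or 1.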

Other observations

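Libraries outside the 6 compared also stood nearer to other groups than to their own. Control replicate 2 at 144 h correlated at r = 0.948 with drought replicate 3 at 120 h and at r = 0.938 with drought replicate 3 at 96 h, across 23341 genes. Combined replicate 3 at 120 h correlated at r = 0.960 with combined replicate 3 at 144 h and at r = 0.933 with control replicate 3 at 168 h. In Pavir.7KG376300.v4.1 combined plants had 17.9, 15.4 and 88.2 CPM at 72 h and 73.4, 120 and 8.35 CPM at 120 h, so that replicate 3 was the outer library at both times.

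The control libraries showed a time course of their own in the 232 higher genes. Their medians relative to 0 h were 0.81, 0.80 and 0.73 log2 units at 96 h. They were 0.75, -0.27 and 0.71 at 120 h. At 144 h they were -0.35, -0.04 and -0.17. Replicate 2 at 120 h was the library that stood apart.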
